A study of Mus musculus with 6 samples.

Results

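The genes described here are 8 genes of the neurons that migrate from the nose to the forebrain, measured in sorted cells of the mouse main olfactory epithelium with and without Fezf1. They were chosen by symbol: Gnrh1, Gal, Npy, Th, Prokr2, Chrna3, Fgf8 and Isl1. A gene with several probe sets would be read from its brightest, but each of the 8 had exactly 1, among 19938 genes measured in all. The cells came from microdissected epithelium of E18.5 embryos on a C57BL/6 background. Fezf1-/- embryos, which lack the gene, gave 3 arrays. Fezf1+/- embryos, which keep 1 working copy, gave the other 3 and are the comparison; wild-type cells were not part of this set. Both genotypes carry the targeted allele, in which EGFP stands under the endogenous Fezf1 promoter, and EGFP fluorescence selected the cells. The labels do not say whether migrating neurons use this promoter.

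Neurons that make gonadotropin-releasing hormone (GnRH) are born in the olfactory placode and leave the nose along olfactory, vomeronasal and terminal nerve fibres to reach the forebrain, where they later drive the reproductive axis. They travel with other cells of a migratory mass, some of which make galanin, neuropeptide Y or tyrosine hydroxylase. In humans, loss of FEZF1 causes Kallmann syndrome, in which the sense of smell is lost and GnRH is deficient, and in Fezf1 mutant mice olfactory axons and GnRH neurons fail to enter the brain. Most GnRH neurons have left the nose before late gestation. The comparison asked how the RNA of these genes differs between epithelial cells that lack Fezf1 and cells that keep 1 copy.

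The signals are log2 values made with GCRMA, a background correction and summary method for Affymetrix probes, and differences are Fezf1-/- minus Fezf1+/- on that scale. Fezf1 itself lay between 5.56 and 6.28 on the Fezf1-/- arrays and between 11.12 and 11.30 on the Fezf1+/- arrays (difference -5.31, SE 0.19, limma adjusted p = 0.000755). The sorted cells had high signals for olfactory neuron markers: Omp, the olfactory marker protein gene, lay between 9.09 and 10.84 on the Fezf1-/- arrays and between 11.82 and 12.12 on the Fezf1+/- arrays, and Stoml3 lay between 8.73 and 10.76 on the Fezf1-/- arrays and between 11.61 and 12.22 on the Fezf1+/- arrays. Fezf1-/- replicate 1 stood apart, with correlations across genes of 0.905 to 0.935 to the other arrays, against 0.975 to 0.995 among those 5. On it the linear signals of 10 measured mesenchyme and bone markers summed to 18748, with 1155 and 1746 on the other Fezf1-/- arrays and 1048 to 2492 on the Fezf1+/- arrays. The brightest of them were the collagen gene Col1a1 (12.14 there, 9.07 and 7.86 on the other Fezf1-/- arrays and 7.57 to 9.28 on the Fezf1+/- arrays) and the decorin gene Dcn (11.44 there, 8.55 and 8.29 on the other Fezf1-/- arrays and 8.35 to 9.33 on the Fezf1+/- arrays). The sum of 13 mature olfactory neuron markers was 3830 on it, with 12088 and 12854 on the other Fezf1-/- arrays and 17766 to 24508 on the Fezf1+/- arrays. Results are therefore given for all 6 arrays and for the 5 arrays without it. In a bulk sample, fewer cells of a type and less RNA per cell cannot be told apart.

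None of the 8 genes passed an adjusted p of 0.05 over all 6 arrays by limma, where 0.0953% of all genes passed as higher and 0.456% as lower in Fezf1-/- cells. At an unadjusted p under 0.05, Gal and Fgf8 were higher and no gene was lower, against 4.23% of all genes higher and 5.25% lower. The median difference of the 8 genes was 0.25, beside 0.02 over all genes, and 6 of 8 had a positive difference, beside 54.8% of all genes. Gal and Fgf8 were also the 2 whose Fezf1-/- values all lay above the Fezf1+/- values, a pattern found in 9.72% of all genes, and the opposite pattern, seen in 8.77%, occurred in none of the 8. In the 5 arrays without Fezf1-/- replicate 1, Gal and Chrna3 rose, 2 of 8, where 0.993% of all genes passed as higher and 1.67% as lower. There the median difference was 0.20, and 6 of 8 differences were positive, beside 55.3% of all genes. The groups did not overlap for Gnrh1, Gal, Chrna3 and Fgf8, 4 of 8 with Fezf1-/- higher, beside 19.9% of all genes higher and 16.3% lower. Of these, Gnrh1 and Chrna3 had overlapped over all 6 arrays. That fit rests on 2 Fezf1-/- arrays. The 8 genes and the lists below were chosen with earlier results of these data known, so counts set beside all genes are descriptions only.

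**Figure D1:**
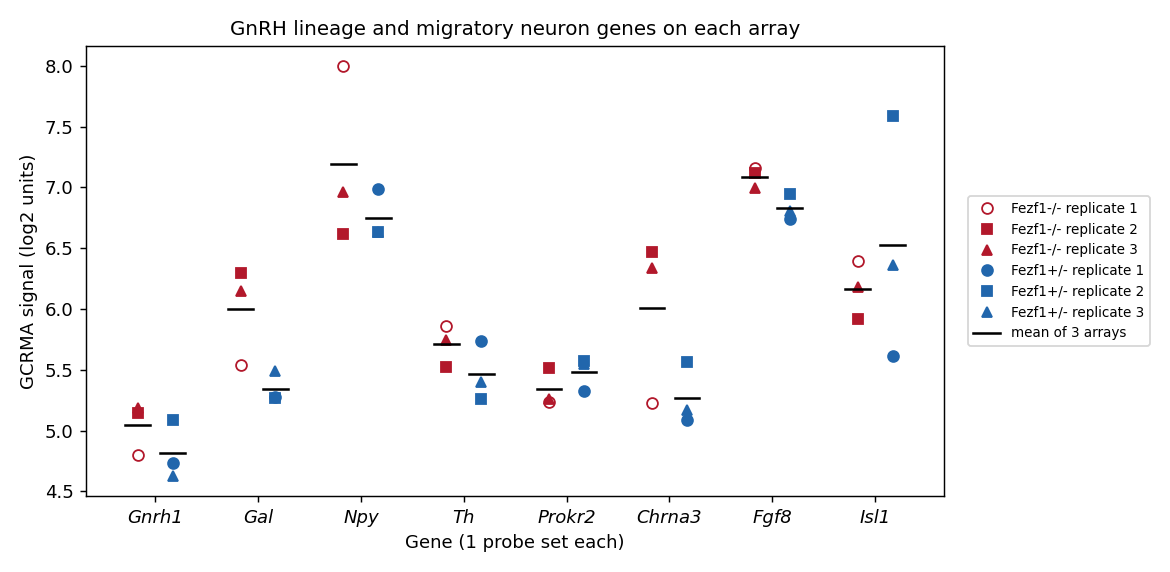
Signal in log2 units (vertical axis) of the 8 genes on each array, with 3 Fezf1-/- arrays (red, left) and 3 Fezf1+/- arrays (blue, right) per gene and black bars for group means. Fezf1-/- replicate 1 (open circle) is the lowest Fezf1-/- value of Gal and Chrna3 and the highest of Npy, while Isl1 is highest on Fezf1+/- replicate 2.

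The first group is the secreted peptides. Gnrh1 encodes the precursor of GnRH itself. Its signal was 4.80, 5.14 and 5.18 on Fezf1-/- replicates 1 to 3, against 4.74, 5.08 and 4.63 on Fezf1+/- replicates 1 to 3. The highest Fezf1+/- value lay above the lowest Fezf1-/- value, so the groups overlapped, and all values lay within 0.56 of each other. The means were 5.04 ± 0.21 in Fezf1-/- and 4.82 ± 0.24 in Fezf1+/- cells (SD, n = 3 each), with a difference of 0.23 (SE 0.17, 95% interval -0.18 to 0.63, limma adjusted p = 0.711). This probe set stood between the percentiles 30.1 and 37.9 of all probe sets of an array, and no detection call was at hand to say whether it was above background. In the 5 arrays the difference was 0.35 (95% interval -0.00394 to 0.70, adjusted p = 0.312).

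Gal encodes galanin, a neuropeptide that some GnRH neurons and many other neurons make. Its signal was 5.54, 6.30 and 6.15 on Fezf1-/- replicates 1 to 3, against 5.28, 5.27 and 5.49 on the Fezf1+/- arrays. Every Fezf1-/- value lay above every Fezf1+/- value, with Fezf1-/- replicate 1 only just above Fezf1+/- replicate 3. The means were 6.00 ± 0.40 in Fezf1-/- and 5.34 ± 0.12 in Fezf1+/- cells (SD, n = 3 each), a difference of 0.65 that did not pass (SE 0.21, 95% interval 0.14 to 1.17, limma adjusted p = 0.41). In the 5 arrays Gal rose by 0.88, a 1.84-fold higher signal (SE 0.11, adjusted p = 0.0126), higher in 2 of 2 Fezf1-/- arrays. The probe set stood between the percentiles 39.3 and 56.3 of all probe sets of an array. Its Fezf1+/- values lay below the median signal, 5.82 to 5.95 over the arrays, so the fold size depends on the background estimate.

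Chrna3 encodes the alpha3 subunit of the nicotinic acetylcholine receptor, best known from autonomic ganglia, and was the other gene that rose in the 5 arrays. Its signal was 5.23, 6.47 and 6.33 on Fezf1-/- replicates 1 to 3, against 5.08, 5.56 and 5.17 on the Fezf1+/- arrays. Fezf1-/- replicates 2 and 3 stood above all other arrays, and replicate 1 lay within the Fezf1+/- range. The means were 6.01 ± 0.68 in Fezf1-/- and 5.27 ± 0.26 in Fezf1+/- cells (SD, n = 3 each), and the difference of 0.74 did not pass (SE 0.35, 95% interval -0.11 to 1.59, limma adjusted p = 0.576). Without Fezf1-/- replicate 1, Chrna3 rose by 1.13, a 2.19-fold higher signal (SE 0.16, adjusted p = 0.0187). The probe set stood between the percentiles 36.1 and 58.7, with its Fezf1+/- values below the median signal of the arrays. This fold size too depends on the background estimate.

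The sequences before the transcription starts of Gal and Chrna3 are shown because these 2 genes moved together over the arrays. Each line gives the 250 bases upstream of the RefSeq start in GRCm38.p6, on the minus strand, for Gal at chr19:3414545-3414794 and for Chrna3 at chr9:55026563-55026812. Capitals mark matches to the E-box CANNTG, to which basic helix-loop-helix factors such as those of neurogenesis bind.
Gal: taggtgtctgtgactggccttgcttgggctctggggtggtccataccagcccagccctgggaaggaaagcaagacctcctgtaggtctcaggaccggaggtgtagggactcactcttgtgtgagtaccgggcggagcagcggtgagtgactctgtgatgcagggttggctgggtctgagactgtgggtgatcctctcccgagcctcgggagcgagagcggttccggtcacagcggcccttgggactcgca
Chrna3: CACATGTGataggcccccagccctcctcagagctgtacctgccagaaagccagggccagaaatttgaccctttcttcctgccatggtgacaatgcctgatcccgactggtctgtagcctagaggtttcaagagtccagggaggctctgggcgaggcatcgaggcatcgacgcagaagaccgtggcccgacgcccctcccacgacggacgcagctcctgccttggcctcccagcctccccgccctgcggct
Chrna3 has 2 overlapping CANNTG matches at the far end of the window, 250 and 248 bases before the start, and Gal has 0, where 66.2% of 32851 RefSeq windows of the same length hold at least 1. The cyclic AMP response element core TGACG, searched on both strands, occurs in neither of these windows and in 17.8% of all, and the homeodomain core TAAT occurs in neither and in 54.9% of all. Such letters are a description of the window and not sites of binding.

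Nicotinic receptors are assembled from several subunits, and the genes for alpha5, alpha3 and beta4, which combine in ganglia, lie next to each other as Chrna5, Chrna3 and Chrnb4 on chromosome 9. Among 3940 genes whose values spanned at least 1 log2 unit, the one most like Chrna3 over the 6 arrays was its neighbour Chrna5 (Pearson r = 0.977), followed by Parvb (r = 0.973) and the vomeronasal receptor Vmn1r13 (r = 0.972). These correlations are descriptions: the points are the same 6 arrays for every gene and share the genotype and the array that stood apart. Chrna5 stood at 5.33, 6.69 and 6.56 on Fezf1-/- replicates 1 to 3, against 5.40, 5.99 and 5.62 on the Fezf1+/- arrays. Like Chrna3, it was high on Fezf1-/- replicates 2 and 3 alone, and in the 5 arrays it rose by 0.96 (SE 0.17, limma adjusted p = 0.0432), with no call over all 6 arrays (0.53, adjusted p = 0.711). Chrna5 was named for its likeness to Chrna3 and for passing in the 5 arrays, so this shared pattern follows from the choice. The annotated ends of Chrna5 and Chrna3 overlap, and where the probes of either lie was not examined, so the 2 probe sets may not be independent. Chrnb4 stood at 5.69, 5.98 and 5.82 on the Fezf1-/- arrays, against 5.50, 5.71 and 5.34 on the Fezf1+/- arrays, with a difference of 0.31 over all arrays (adjusted p = 0.537) and 0.38 over 5 (adjusted p = 0.225). Of the 15 nicotinic subunit genes besides Chrna3, 0 passed over all arrays by limma (0 also at an unadjusted p under 0.05), and the median difference was 0.09. In the 5 arrays Chrna5 alone passed, where 0.993% of all genes passed as higher and 1.67% as lower. There 4 stood higher and 0 stood lower at an unadjusted p under 0.05, beside 7.63% and 8.68% of all genes, and the median was 0.16. Chrne, the epsilon subunit of muscle, had a difference of 0.30 (SE 0.16, adjusted p = 0.613).

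**Figure D2:**
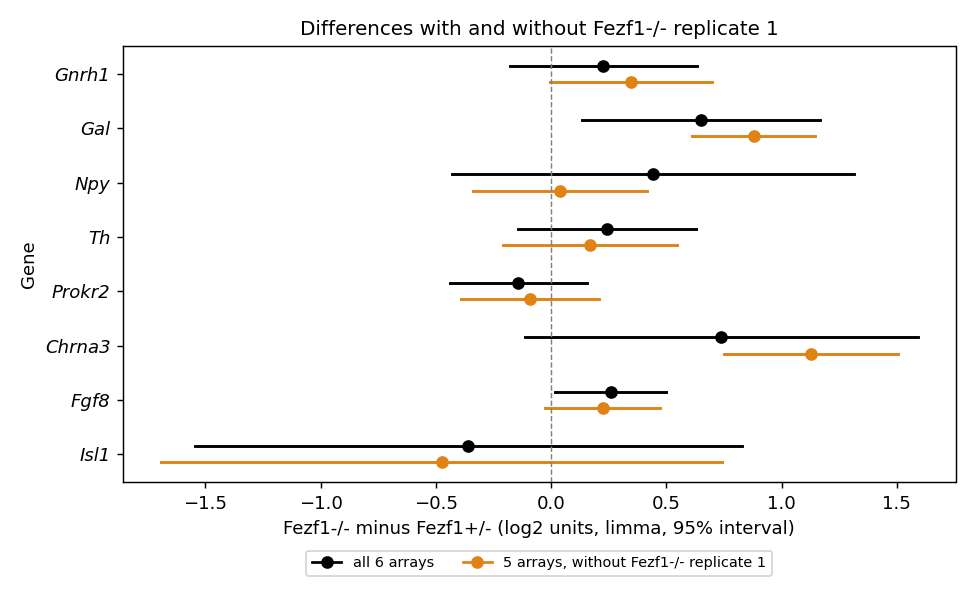
Fezf1-/- minus Fezf1+/- differences in log2 units (horizontal axis) of the 8 genes with 95% intervals from limma, over all 6 arrays (black) and without Fezf1-/- replicate 1 (orange). Gal and Chrna3 move to 0.88 and 1.13 with narrower intervals when that array is left out, and Npy moves to 0.04.

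Npy encodes neuropeptide Y, which neurons use as a transmitter and which ensheathing glia of the olfactory nerve also make. Its signal was 7.99, 6.62 and 6.96 on Fezf1-/- replicates 1 to 3, against 6.98, 6.64 and 6.63 on the Fezf1+/- arrays. Fezf1-/- replicate 1 stood above all others and the remaining 5 arrays overlapped. The means were 7.19 ± 0.72 in Fezf1-/- and 6.75 ± 0.20 in Fezf1+/- cells (SD, n = 3 each), with a difference of 0.44 (SE 0.36, 95% interval -0.43 to 1.31, limma adjusted p = 0.727), and in the 5 arrays it was 0.04 (SE 0.16, adjusted p = 0.932). On Fezf1-/- replicate 1 the summed linear signal of 7 measured ensheathing glia markers was 5503, against 689 and 731 on the other Fezf1-/- arrays and 598 to 927 on the Fezf1+/- arrays, and 6 of the 7 were highest on it. Fabp7, a fatty acid binding protein of glia, stood at 11.90 there, 7.80 and 7.77 on the other Fezf1-/- arrays and 7.98, 8.32 and 6.74 on the Fezf1+/- arrays. Erbb3, a neuregulin receptor gene of glia, stood at 10.00 there, 7.85 and 7.69 on the other Fezf1-/- arrays and 8.56, 8.47 and 8.05 on the Fezf1+/- arrays. Markers of mesenchyme and bone, myeloid, endothelial, erythroid and sustentacular cells were also highest in sum on that array. There the mesenchyme and bone list lay at a median of 3.71 above the Fezf1+/- mean, and the ensheathing glia list at 1.64. The part of any of these cells in the Npy value was not tested. The genes most like Npy over the 6 arrays were Adamts6 (r = 0.998), Cast (r = 0.996) and Slc30a7 (r = 0.994).

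**Figure D3:**
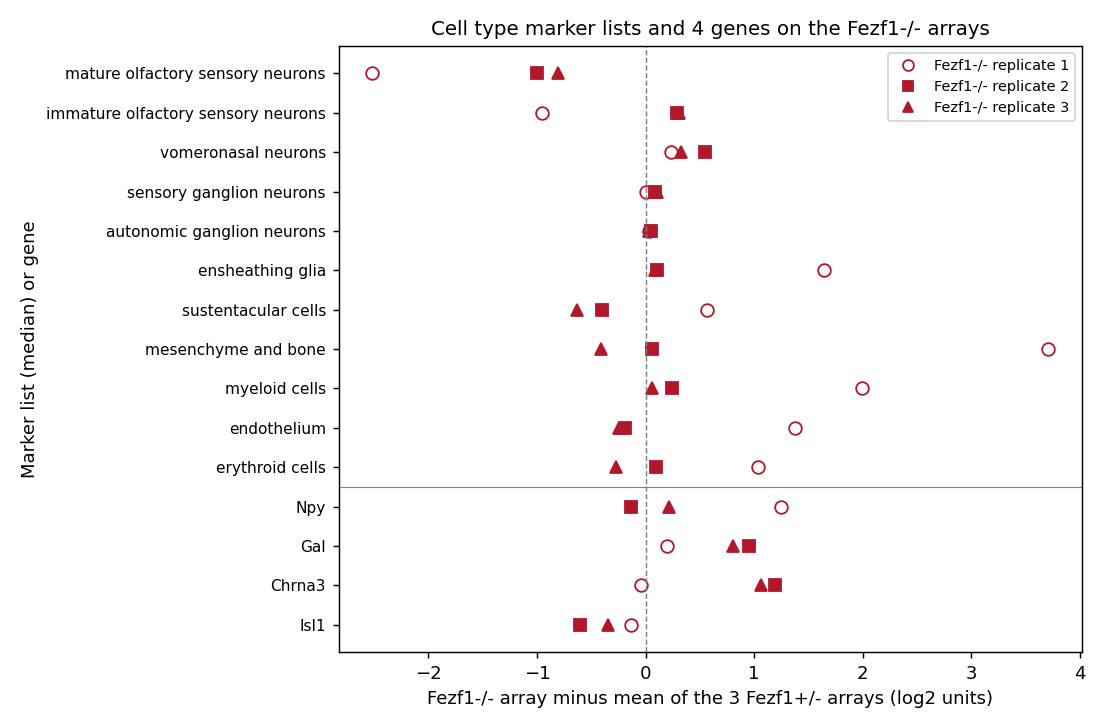
Each Fezf1-/- array minus the mean of the 3 Fezf1+/- arrays in log2 units (horizontal axis), as the median of each marker list (above the line) and for 4 genes (below it). Npy shares its high value on Fezf1-/- replicate 1 (open circle) with glial, mesenchymal, myeloid, endothelial, erythroid and sustentacular markers. Gal and Chrna3 are lower there, as are the olfactory neuron markers.

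The 11 measured relatives and receptors of galanin and NPY gave 0 calls by limma over all arrays, 1 standing higher and 0 lower before adjustment at 0.05 (beside 4.23% and 5.25% of all genes), and 0 calls in the 5 arrays, with 2 higher and 0 lower (beside 7.63% and 8.68%). Their median difference was 0.14. All 11 differences were positive over all arrays, beside 54.8% of all genes, with the smallest at 0.006. Over 5 arrays 10 were positive, beside 55.3%, and the lowest was -0.03. Npy1r, the Y1 receptor of NPY, stood at 5.74, 4.59 and 4.98 on the Fezf1-/- arrays, against 4.07, 4.35 and 4.07 on the Fezf1+/- arrays. All Fezf1-/- values lay above the Fezf1+/- values, yet the difference of 0.94 did not pass (SE 0.29, adjusted p = 0.392), and Fezf1-/- replicate 1 was again the highest. The difference in the 5 arrays was 0.62 (adjusted p = 0.106). Pyy, the gut peptide YY, had a difference of 0.15 (adjusted p = 0.616). The 9 measured genes that cut, amidate or package neuropeptides had a median of -0.24 over all arrays and 0.13 over 5, with 0 calls by limma in either and, at an unadjusted p under 0.05, 0 over all 6 (beside 4.23% and 5.25% of all genes) and 1 higher and 1 lower over 5 (beside 7.63% and 8.68%). The carboxypeptidase gene Cpe stood at 10.26, 11.33 and 11.40 on the Fezf1-/- arrays, against 11.33, 11.34 and 11.60 on the Fezf1+/- arrays (difference -0.43, adjusted p = 0.711, and -0.06 over 5 arrays, adjusted p = 0.842). Its low value was that of Fezf1-/- replicate 1, as it was for Scg5, the gene of the convertase chaperone 7B2 (8.04 there, 9.29 and 9.28 on the other Fezf1-/- arrays and 9.20 to 9.41 on the Fezf1+/- arrays), whose difference was -0.44 over all arrays and -0.03 over 5.

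Th encodes tyrosine hydroxylase, the rate-limiting enzyme of dopamine and noradrenaline synthesis. Its signal was 5.86, 5.53 and 5.74 on Fezf1-/- replicates 1 to 3, against 5.73, 5.26 and 5.40 on the Fezf1+/- arrays. The groups overlapped. The means were 5.71 ± 0.17 in Fezf1-/- and 5.47 ± 0.24 in Fezf1+/- cells (SD, n = 3 each), with a difference of 0.24 (SE 0.16, 95% interval -0.14 to 0.63, limma adjusted p = 0.683), and 0.17 in the 5 arrays (adjusted p = 0.653). Among 15 measured genes of catecholamine synthesis, transport and breakdown and their dopamine receptors, 0 passed in either fit by limma, while 2 stood higher and 1 stood lower at an unadjusted p under 0.05 over all arrays (beside 4.23% and 5.25% of all genes) and 3 higher and 1 lower over 5 (beside 7.63% and 8.68%). Maoa, the monoamine oxidase A gene, lay between 7.66 and 7.83 on the Fezf1-/- arrays and between 7.26 and 7.47 on the Fezf1+/- arrays, without overlap (difference 0.38, SE 0.10, adjusted p = 0.293). Drd2, the dopamine D2 receptor gene through which dopamine acts on olfactory nerve terminals, stood at 6.85, 7.63 and 7.65 on the Fezf1-/- arrays, against 8.07, 8.04 and 8.61 on the Fezf1+/- arrays. It too did not overlap between groups and did not pass (difference -0.86, SE 0.27, adjusted p = 0.398).

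Autonomic and sensory ganglion neurons, which also use Th, Chrna3 or Isl1, were examined through their markers. The 8 measured autonomic markers had summed linear signals of 259.5 to 265.4 on the Fezf1-/- arrays and 258.2 to 275.1 on the Fezf1+/- arrays, and their median difference was 0.03. The brightest of the 8 were Slc18a3, the vesicular acetylcholine transporter gene, at 5.78 to 6.13 on the Fezf1-/- arrays and 5.94 to 6.44 on the Fezf1+/- arrays, and Hand2, a transcription factor gene of sympathetic neurons, at 5.57 to 5.65 on the Fezf1-/- arrays and 5.30 to 5.55 on the Fezf1+/- arrays. These signals stood between the percentiles 40.5 and 58.3 of all probe sets of an array. Of the 8, 2 (Vip and Chat) were below the lower quartile of signals on all 6 arrays. The 6 measured sensory ganglion markers summed to 1570 to 3046 on the Fezf1-/- arrays and 2591 to 3060 on the Fezf1+/- arrays, with the lowest sum on Fezf1-/- replicate 1. The brightest were the sodium channel gene Scn9a, at 8.72, 10.28 and 10.42 on the Fezf1-/- arrays and 10.49 to 10.79 on the Fezf1+/- arrays, and the peripherin gene Prph, at 8.98, 10.59 and 10.20 on the Fezf1-/- arrays and 9.67 to 10.24 on the Fezf1+/- arrays. Prph was also on the list of migration and guidance genes. Whether the Scn9a and Prph signals came from ganglion neurons or from other sorted cells was not tested.

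Markers of olfactory and vomeronasal neurons also differed between the arrays, though not all in the direction of Gal and Chrna3. The 12 immature olfactory neuron markers lay at a median of -0.95, 0.29 and 0.31 from the Fezf1+/- mean on Fezf1-/- replicates 1 to 3. Over all 6 arrays 0 of the 12 passed by limma, and 0 stood higher or lower at an unadjusted p under 0.05 (beside 4.23% and 5.25% of all genes). In the 5 arrays 1 passed as higher and 0 as lower (beside 0.993% and 1.67%). At the unadjusted threshold 7 stood higher and 0 lower there (beside 7.63% and 8.68%), and 11 of the 12 differences were positive. The brightest were the stathmin genes Stmn1, between 12.01 and 12.91 on the Fezf1-/- arrays and between 12.60 and 12.86 on the Fezf1+/- arrays, and Stmn2, between 11.57 and 12.77 on the Fezf1-/- arrays and between 12.30 and 12.50 on the Fezf1+/- arrays. Without Fezf1-/- replicate 1 both were higher in Fezf1-/- cells without overlap, as were 19.9% of all genes. Neither passed there (Stmn1 0.17, limma adjusted p = 0.497, and Stmn2 0.32, adjusted p = 0.211). The 13 mature markers lay at -2.51, -0.995 and -0.81, so they were low on replicates 2 and 3, where Gal and Chrna3 were high. Over all 6 arrays 0 of the 13 passed by limma. In the 5 arrays 4 passed as lower and 0 as higher, beside 1.67% lower and 0.993% higher of all genes. At the unadjusted threshold 10 stood lower and 0 higher in these 5 arrays (beside 8.68% and 7.63%). There Omp differed by -1.12 (limma adjusted p = 0.00702) and Stoml3 by -1.17 (adjusted p = 0.0243). The 5 measured vomeronasal markers summed to 2695 on Fezf1-/- replicate 1, 3791 and 4053 on the other Fezf1-/- arrays and 2663 to 2841 on the Fezf1+/- arrays. Their median difference was 0.39 over all arrays and 0.38 over 5. Gnai2, a G protein gene of apical vomeronasal neurons that other cells use too, rose by 1.17 over all 6 arrays (SE 0.12, limma adjusted p = 0.0201), at 10.47, 10.36 and 10.36 on the Fezf1-/- arrays, against 9.20, 9.42 and 9.06 on the Fezf1+/- arrays. Gnao1, a G protein gene of basal vomeronasal neurons, stood at 9.27, 10.63 and 10.56 on the Fezf1-/- arrays, against 10.36, 10.21 and 10.53 on the Fezf1+/- arrays. It did not pass over all arrays (difference -0.21, limma adjusted p = 0.861) or over 5 (0.23, adjusted p = 0.404). Its lowest value was on Fezf1-/- replicate 1, as it was for Stmn1 and Stmn2. The part of these 3 lists in the values of Gal and Chrna3, which were also lowest of the Fezf1-/- arrays on replicate 1, was not tested. Markers of 4 further cell types were brighter in sum on Fezf1-/- replicate 1 than on any other array. The 8 sustentacular markers summed to 9776 there, 4604 and 5317 on the other Fezf1-/- arrays and 5241 to 6738 on the Fezf1+/- arrays, led by Cyp2g1 and Krt8. The 9 myeloid markers (led by Lyz2 and Cx3cr1) summed to 3103 there, 495.2 and 505 on the other Fezf1-/- arrays and 432.6 to 608.1 on the Fezf1+/- arrays. The 8 endothelial markers, led by Cldn5 and Flt1, summed to 958 there, 295.5 and 297 on the other Fezf1-/- arrays and 264 to 406 on the Fezf1+/- arrays. The 3 measured erythroid markers, led by Alas2 and Slc4a1, summed to 1018 there, 110.2 and 156.3 on the other Fezf1-/- arrays and 120.9 to 148.6 on the Fezf1+/- arrays.

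Prokr2 encodes a receptor for prokineticin 2, a secreted signal that olfactory bulb and GnRH neuron development need in mice, and human PROKR2 variants occur in Kallmann syndrome. Its signal was 5.24, 5.52 and 5.26 on Fezf1-/- replicates 1 to 3, against 5.33, 5.57 and 5.54 on the Fezf1+/- arrays. The groups overlapped, and the span of 0.33 over all arrays was the narrowest of the 8 genes. The difference was -0.14 (SE 0.12, 95% interval -0.44 to 0.16, limma adjusted p = 0.736), and -0.09 in the 5 arrays (adjusted p = 0.775). The 3 other genes of the system had differences of 0.14 to 0.17. Prok1, a ligand, lay between 4.85 and 5.14 on the Fezf1-/- arrays and between 4.63 and 4.95 on the Fezf1+/- arrays (adjusted p = 0.717). Prokr1, the sister receptor gene, was dim, at 4.14 to 4.32 on the Fezf1-/- arrays and 4.01 to 4.09 on the Fezf1+/- arrays (difference 0.14, adjusted p = 0.67, and 0.09 over 5 arrays, adjusted p = 0.671).

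Fgf8 encodes a fibroblast growth factor that the olfactory placode needs to make GnRH and sensory neurons. Its signal was 7.16, 7.12 and 6.99 on Fezf1-/- replicates 1 to 3, against 6.74, 6.94 and 6.81 on the Fezf1+/- arrays. The groups did not overlap, and Fezf1-/- replicate 1 was no exception here. The means were 7.09 ± 0.08 in Fezf1-/- and 6.83 ± 0.10 in Fezf1+/- cells (SD, n = 3 each), a 1.20-fold ratio that did not pass (difference 0.26, SE 0.10, 95% interval 0.02 to 0.50, limma adjusted p = 0.495). In the 5 arrays it was 0.22 (adjusted p = 0.354).

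Of 26 measured FGF ligands, receptors and feedback genes, 0 passed over all arrays by limma, while 2 stood higher and 0 stood lower at an unadjusted p under 0.05 (beside 4.23% and 5.25% of all genes). Over 5 arrays 1 passed as higher and 0 as lower (beside 0.993% and 1.67% of all genes). At that unadjusted threshold 3 stood higher and 2 lower (beside 7.63% and 8.68%). Spry2, a Sprouty gene that FGF signalling induces and that dampens it, stood at 9.81, 10.10 and 9.94 on the Fezf1-/- arrays, against 9.33, 8.75 and 8.87 on the Fezf1+/- arrays. All Fezf1-/- values were higher. The difference was 0.97 over all arrays (SE 0.18, adjusted p = 0.126), and in the 5 arrays Spry2 rose by 1.03 (SE 0.18, adjusted p = 0.0377). Flrt3, an FGF receptor partner among the human GnRH deficiency genes, stood at 7.86, 7.33 and 7.34 on the Fezf1-/- arrays, against 6.14, 6.90 and 6.46 on the Fezf1+/- arrays. The groups did not overlap, but neither the difference of 1.01 (SE 0.24, adjusted p = 0.233) nor that of 0.83 in the 5 arrays (adjusted p = 0.11) passed. The FGF list had a median of 0.20 over all arrays and 0.07 over 5.

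Isl1 encodes a LIM homeobox transcription factor of sensory, autonomic and GnRH neurons. Its signal was 6.39, 5.91 and 6.18 on Fezf1-/- replicates 1 to 3, against 5.61, 7.59 and 6.36 on Fezf1+/- replicates 1 to 3. The Fezf1+/- arrays alone held both the lowest and the highest value. The means were 6.16 ± 0.24 in Fezf1-/- and 6.52 ± 1.00 in Fezf1+/- cells (SD, n = 3 each), with a difference of -0.36 (SE 0.49, 95% interval -1.55 to 0.83, limma adjusted p = 0.82), which became 0.17 without Fezf1+/- replicate 2. That Fezf1+/- SD was larger than that of 99.8% of all genes. The genes most like Isl1 were Lrrc74b (r = 0.974), Bcat1 (r = 0.97) and Six6 (r = 0.966), a homeobox gene that GnRH neurons of mice need. Six6 stood at 5.02, 4.94 and 4.94 on the Fezf1-/- arrays, against 4.76, 6.05 and 5.03 on Fezf1+/- replicates 1 to 3. Such genes were picked for their likeness to Isl1, so a high value on the same array, Fezf1+/- replicate 2, follows from the choice. Bcat1 stood at 6.87 on that array, against 5.01 to 5.34 on the Fezf1-/- arrays and 4.83 and 5.15 on the other Fezf1+/- arrays.

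Among 16 measured LIM homeobox genes and LIM cofactors, 0 passed over all arrays by limma, while 2 stood higher and 1 stood lower at an unadjusted p under 0.05 (beside 4.23% and 5.25% of all genes). Over 5 arrays 2 cofactor genes rose and 0 genes of the list fell (beside 0.993% and 1.67% of all genes). At that unadjusted threshold 3 stood higher and 1 lower (beside 7.63% and 8.68%). Lmo2, a LIM-only adaptor, stood at 9.62, 10.78 and 10.67 on the Fezf1-/- arrays, against 9.43, 9.37 and 9.51 on the Fezf1+/- arrays. It did not overlap between groups and rose by 1.29 in the 5 arrays (SE 0.10, adjusted p = 0.0017), with 0.92 over all 6 (SE 0.31, adjusted p = 0.438). Lmo1 stood at 7.16, 8.35 and 8.37 on the Fezf1-/- arrays, against 7.42, 7.42 and 7.45 on the Fezf1+/- arrays, and rose by 0.93 in the 5 arrays (SE 0.09, adjusted p = 0.00377), with 0.53 over all 6 (adjusted p = 0.674). In both genes, as in Gal and Chrna3, Fezf1-/- replicates 2 and 3 were high and replicate 1 lay lower. Lmo1 was named because it passed in the 5 arrays, so its pattern follows at least in part from that choice. Lmo2 was also among the 3 genes most like Gal (r = 0.99), with Guk1 (r = 0.991) and AW551984 (r = 0.99), each over 6 arrays. These 3 were picked for their likeness to Gal, so a shared pattern follows from the choice. Lhx6, a LIM homeobox gene of forebrain interneurons, had a difference of 0.27 (adjusted p = 0.382).

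**Figure D4:**
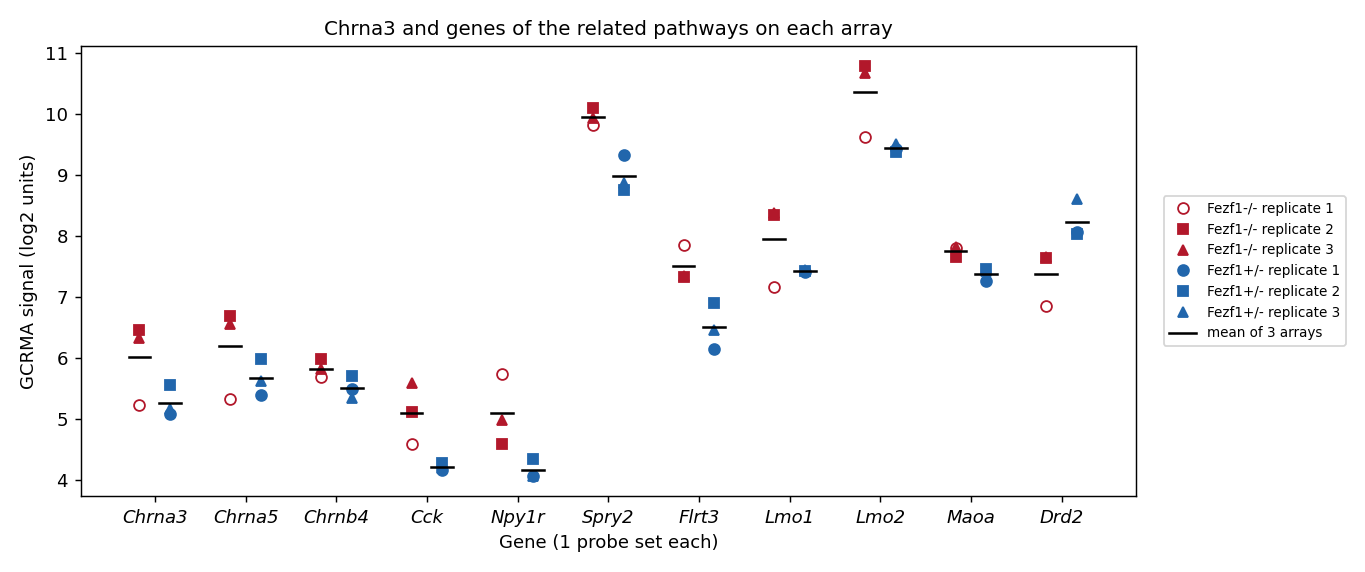
Signal in log2 units (vertical axis) of Chrna3 and 10 genes of the related pathways on 3 Fezf1-/- arrays (red, left) and 3 Fezf1+/- arrays (blue, right), with black bars for group means. Chrna3, Chrna5, Lmo1 and Lmo2 are high on Fezf1-/- replicates 2 and 3 and lower on replicate 1 (open circle), while Spry2 is high on all 3 Fezf1-/- arrays. Chrna5 and Lmo1 were named after their values were seen.

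Genes that guide or carry the migration, and those mutated in people with GnRH deficiency, gave 0 calls over all 6 arrays and 1 over 5. Of 25 measured migration and guidance genes, 0 passed over all arrays by limma, while 2 stood higher and 1 stood lower at an unadjusted p under 0.05 (beside 4.23% and 5.25% of all genes). Without Fezf1-/- replicate 1, 1 passed as higher and 0 as lower (beside 0.993% and 1.67% of all genes). At that unadjusted threshold 5 stood higher and 4 lower (beside 7.63% and 8.68%). Cck, the cholecystokinin gene, a peptide that slows GnRH neuron migration in mouse explants, stood at 4.59, 5.12 and 5.59 on the Fezf1-/- arrays, against 4.17, 4.28 and 4.20 on the Fezf1+/- arrays. The groups did not overlap. Cck rose by 1.14 in the 5 arrays (SE 0.15, adjusted p = 0.0141), with 0.89 over all 6 (SE 0.25, adjusted p = 0.323). Its Fezf1+/- values lay below the lower quartile of signals, 4.30 to 4.44 over the arrays, so the size depends on the background estimate. Nrp1, a semaphorin receptor, lay between 9.78 and 9.89 on the Fezf1-/- arrays and between 10.00 and 10.38 on the Fezf1+/- arrays (difference -0.34, adjusted p = 0.457).

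All 41 genes of human GnRH deficiency and Kallmann syndrome were measured, and 0 passed in either fit by limma. At an unadjusted p under 0.05, 4 stood higher and 1 lower over all arrays (beside 4.23% and 5.25% of all genes), and 6 higher and 3 lower over 5 (beside 7.63% and 8.68%). Their median difference was 0.05 over all arrays and -0.03 over 5. Rnf216, a ubiquitin ligase gene, had the second smallest p after Flrt3, with a difference of 0.31 (SE 0.09, adjusted p = 0.365). Among 21 measured transcription factors of the placode and GnRH neurons 0 passed in either fit, while 2 stood higher and 1 stood lower at an unadjusted p under 0.05 over all arrays (beside 4.23% and 5.25% of all genes) and 3 higher and 1 lower over 5 (beside 7.63% and 8.68%). The homeobox gene Pknox1 differed by -0.43 (adjusted p = 0.465) and Msx2 by 0.26 (adjusted p = 0.472), neither past the threshold.

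Counted once each, 173 of 182 genes in these pathway lists were measured. By limma 0 passed over all 6 arrays, where 0.0953% of all genes passed as higher and 0.456% as lower, and 14 stood higher and 5 stood lower at an unadjusted p under 0.05, beside 4.23% higher and 5.25% lower. In the 5 arrays 5 rose (Cck, Chrna5, Spry2, Lmo1 and Lmo2) and 0 fell, beside 0.993% higher and 1.67% lower of all genes, and at the unadjusted threshold 29 stood higher and 13 lower (beside 7.63% and 8.68%). The median difference of the 173 genes was 0.10 over all arrays and 0.06 over 5, beside 0.02 for all genes in both.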

How the data were processed

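RNA (100 ng per sample) was biotin-labelled, per the labels' protocols, and hybridised to Affymetrix 1.0 ST arrays. The authors made the deposited log2 signals with GCRMA and Affymetrix Expression Console, according to the submitters' processing notes. Versions, genome build, filters and batch correction are not given in the sources used here, and base 2 was inferred from the range (2.14 to 14.5). No scanner files were analysed here, hence no detection calls.

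Of 35557 probe sets, 21789 had 1 symbol in the platform annotation, 1621 several and 12147 none; 21698 were matched to RefSeq names of GRCm38.p6 by Entrez number. Each gene kept its brightest probe set, giving 19938 genes, unfiltered. limma 3.58.1 under R 4.3.3 (lmFit, eBayes, two-sided) compared the genotypes, p-values being adjusted by Benjamini-Hochberg across every gene (threshold 0.05), and was tested on simulated data. Those data took their noise from the spread among the Fezf1+/- arrays and held no array that stood apart. They therefore cannot show how the fit behaves with Fezf1-/- replicate 1. Whether replicates were separate embryos or pools is not in the labels, so p-values describe only the spread among these samples, and 3 arrays per group limit precision. An exact test of 3 against 3 cannot go below 0.1 and was not run.

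The 8 genes and the lists were chosen with earlier results of these data known. Named were the 8 genes, Fezf1, list members past the threshold (up to 4) or else the 2 with the smallest p, the brightest 2 markers of a list, and the 3 genes most like each of the 8 that spans 1 log2 unit. Chrna5, Lmo1, Vip and Chat were named as list members after their values were seen. Alternatives were quantile normalisation, array centring, a filter, averaged probe sets, a floor, other moderation, array weights, the replicate block and leaving out each array.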

Additional observations from a re-analysis of the deposited data

How the results depend on the processing

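Leaving out each array in turn gave 40 to 531 genes called, against 110 over all 6 arrays, the highest without Fezf1-/- replicate 1. It gave 0 to 2 of the 8 genes and 0 to 5 pathway genes called, above 0 without that array alone. Over these fits the difference of Gal ran from 0.50 to 0.88, of Chrna3 from 0.51 to 1.13 and of Isl1 from -0.81 to 0.17. Array weights, which gave Fezf1-/- replicate 1 a weight of 0.136, called 740 of all 19938 genes, 284 higher and 456 lower. Of the 8 genes 2 were called (Gal 0.90, limma adjusted p = 0.00855, and Chrna3 1.06, adjusted p = 0.023). Of the 173 pathway genes 7 were called, a share near that of all genes. Chrna5 was not among them (adjusted p = 0.0588). Keeping only genes brighter than the median gene left 24 calls and tested Npy and Fgf8 alone of the 8, and a floor at the lower quartile (4.39) called 55. With the replicate number as a block 88 genes and 0 of the 8 were called. Deviations of same-numbered arrays from their group means correlated at 0.225, -0.332 and 0.541. Fezf1-/- replicate 1, which stood apart, shapes these deviations, so they cannot show whether same-numbered arrays shared more than a number. Prokr1 lay below the floor and gave no value there. Quantile normalisation, centring, averaged probe sets and other moderation changed no call among the 8 genes. No scanner data were used, so how far any probe set lay above background was not examined. This bears most on the dim probe sets of Gnrh1, Cck and Prokr1, and also on those of Gal, Chrna3, Th and Prokr2.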
